A study of Mus musculus with 8 samples.

Results

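Hox genes were examined in Tie2-GFP mouse embryos, in cells that had been sorted for GFP out of cortex or out of lung. They were taken as the genes whose array annotation gives a symbol of the form Hoxa, Hoxb, Hoxc or Hoxd with a number, and each was represented by a probe set that names it alone, the one with the highest mean over the 8 arrays. This gave 33 genes of 18193 tested, out of 39 Hox loci in the RefSeq gene table. Hoxb8 and Hoxd4 were named only on probe sets shared with Hoxb7 and Hoxd3, and the remaining loci were not analysed here. The study set endothelial cells of the brain, where the blood-brain barrier forms, against those of the lung. It had 4 cortex arrays and 4 lung arrays, all from embryos at E13.5, numbered 72, 22, 19 and 18 in both tissues. The embryos were homozygous for a Tie2-GFP transgene (Jackson laboratory strain 003658), in which the promoter of Tek (Tie2), an endothelial receptor gene, drives GFP. That promoter is also active in some blood cells, so GFP alone does not define an endothelial cell. Each array held RNA of the embryos of 1 litter (10 to 13) pooled together, and 15 to 30 ng of RNA was amplified before hybridisation to Affymetrix Mouse Genome 430 2.0 arrays. The labels do not say whether arrays with the same number share a litter.

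Hox genes encode homeodomain transcription factors that give cells along the head-to-tail axis their positional identity. In mammals they lie in clusters named A to D, on mouse chromosomes 6, 11, 15 and 2, and genes in the same relative place in different clusters are paralogues that share a number. Low-numbered genes, at the 3′ end of a cluster, are switched on early and reach far forward in the embryo, and high-numbered genes, at the 5′ end, act towards the tail and in limbs and genitalia. The forebrain, from which the cortex forms, lies in front of the forward limit of Hox expression. The lung buds from foregut, where 3′ Hox genes are active, and Hoxa5 is known for its part in lung development. Polycomb proteins keep Hox clusters silent, Trithorax proteins keep them active, retinoic acid induces their 3′ genes, and PBX and MEIS proteins bind DNA together with HOX proteins.

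The promoters of 4 Hox genes are printed to show the DNA in front of genes of different cluster position. Hoxa5, Hoxb4 and Hoxd8 are members from 3 clusters that fell strongly in cortex, and Hoxa13 is a 5′ member with no call and the most CpG dinucleotides. They come from RefSeq (GRCm38.p6), run 5′ to 3′ on the gene's strand from 250 bases before the start of the gene to 50 after it, and lie at chr6:52204538-52204837 (Hoxa5, minus strand), chr11:96318017-96318316 (Hoxb4, plus strand), chr2:74704365-74704664 (Hoxd8, plus strand) and chr6:52260831-52261130 (Hoxa13, minus strand). Capitals mark AGGTCA, the hexamer bound by nuclear receptors such as those for retinoic acid, or TGACCT, the same hexamer read on the other strand.
Hoxa5: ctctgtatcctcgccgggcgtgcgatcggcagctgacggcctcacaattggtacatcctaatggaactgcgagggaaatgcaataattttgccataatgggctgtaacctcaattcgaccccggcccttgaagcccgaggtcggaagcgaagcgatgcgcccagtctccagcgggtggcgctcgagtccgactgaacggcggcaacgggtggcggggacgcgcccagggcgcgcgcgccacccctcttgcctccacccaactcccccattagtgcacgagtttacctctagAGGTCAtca
Hoxb4: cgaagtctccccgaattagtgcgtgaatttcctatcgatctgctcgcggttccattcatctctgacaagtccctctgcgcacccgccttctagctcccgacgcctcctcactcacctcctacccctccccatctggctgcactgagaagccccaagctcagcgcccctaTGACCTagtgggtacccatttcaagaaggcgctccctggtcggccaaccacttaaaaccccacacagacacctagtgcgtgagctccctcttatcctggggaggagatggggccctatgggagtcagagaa
Hoxd8: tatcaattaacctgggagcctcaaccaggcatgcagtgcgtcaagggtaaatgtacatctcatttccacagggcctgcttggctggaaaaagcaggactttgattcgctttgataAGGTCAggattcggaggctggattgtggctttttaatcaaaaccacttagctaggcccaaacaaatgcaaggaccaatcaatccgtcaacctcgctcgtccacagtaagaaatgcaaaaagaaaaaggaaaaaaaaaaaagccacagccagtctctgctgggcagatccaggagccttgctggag
Hoxa13: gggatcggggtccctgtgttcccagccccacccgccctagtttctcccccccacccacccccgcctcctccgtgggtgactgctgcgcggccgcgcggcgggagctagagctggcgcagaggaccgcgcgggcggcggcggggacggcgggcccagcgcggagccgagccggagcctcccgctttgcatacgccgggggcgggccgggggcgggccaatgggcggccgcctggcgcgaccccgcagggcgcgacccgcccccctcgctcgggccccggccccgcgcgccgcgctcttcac
The hexamer begins at base 292 of the Hoxa5 window, which is past the start of the gene, at base 170 of the Hoxb4 window and at base 116 of the Hoxd8 window. It was found in 7 of 24 Hox promoters in the table (those of Hoxa5, Hoxb4, Hoxc4, Hoxd3, Hoxd4, Hoxd8 and Hoxd10), where 16.26% of all 32851 promoters hold it. The table had promoters for 22 Hox genes, which included 19 of the 33 measured and 8 of the 11 called. Among these called genes, Hoxa2, Hoxa3, Hoxa7 and Hoxa9 lacked the hexamer, while the uncalled Hoxc4 and Hoxd10 held it. Hox promoters held a median of 14.5 CpG dinucleotides (range 4 to 45), against 7 over all promoters. The Hoxa13 window held 45, the Hoxa5 window 29, the Hoxb4 window 14 and the Hoxd8 window 6. The median was 11.5 for the 8 promoters of called genes and 20 for the 13 of uncalled genes. Other motifs were sought on both strands and overlaps were allowed. TGATNNAT, bound by HOX with PBX, was in 4 Hox promoters (8.85% of all), among them those of Hoxa2 and Hoxb1, and TGACAG, bound by MEIS proteins, was in 2, those of Hoxa2 and Hoxa3 (19.18% of all). TAATTA, the core of homeodomain sites, was in 2 promoters, both of Hoxd11 (5.29% of all), GATTTA was in that of Hoxd4 (9.19%), GGTCAC was in 3 (14.92%) and CCGCCC was in 10 (35.66%). The motifs were chosen after the promoters had been seen, and a match in a window is a description only.

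Tissue was taken from the title, the source name and the tissue label of each sample. For the arrays numbered 19 and 18 the free-text description named the opposite tissue in both tissues. Genes outside the Hox clusters went with the titles, since all 12 neural markers were higher on the cortex arrays. Results were therefore also computed from the arrays numbered 72 and 22 alone. The 14 endothelial markers averaged 9.55 to 11.38 per array in cortex and 11.39 to 11.96 in lung, so endothelial genes were high in both, and the 12 neural markers averaged 11.1 to 11.6 in cortex and 6.16 to 6.54 in lung. In bulk samples, fewer cells of a type cannot be told apart from less RNA per cell.

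Hox expression was lower in cortex cells than in lung cells over part of the clusters, and no Hox gene was called higher. Of the 33 genes, 11 fell in cortex (limma on log2 values, adjusted p under 0.05), where 7.71% of all genes tested did. No Hox gene rose, where 10.4% of all genes did, and at an unadjusted p under 0.05, which 16.0% of all genes passed as higher and 15.3% as lower, 0 Hox genes were higher and 14 lower. The fall was at least 2-fold for 9 Hox genes, against 4.95% of all genes. All 4 cortex arrays lay below all 4 lung arrays for 13 Hox genes, against 12.0% of all genes. These 13 were the 11 called genes with Hoxc5 and Hoxb13, whose differences of -0.23 and -0.24 did not pass the test. The mean was lower in cortex for 31 Hox genes, and the median difference (cortex minus lung, log2) was -0.55, against -0.09 over all genes. With the arrays numbered 72 and 22 alone, 8 Hox genes were called lower (without Hoxa2, Hoxa7, Hoxb5 and Hoxd3, and with Hoxc4), where 1.08% of all genes were, and the median was -1.24. Normalising to the mean of the endothelial markers, which shifted the median of all genes to 1.13, left 8 Hox genes lower (0.824% of all genes), without Hoxa3, Hoxa7 and Hoxd3, made 1 higher (Hoxd10, where 31.0% of all genes were higher) and turned the Hox median to 0.67.

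**Figure D1:**
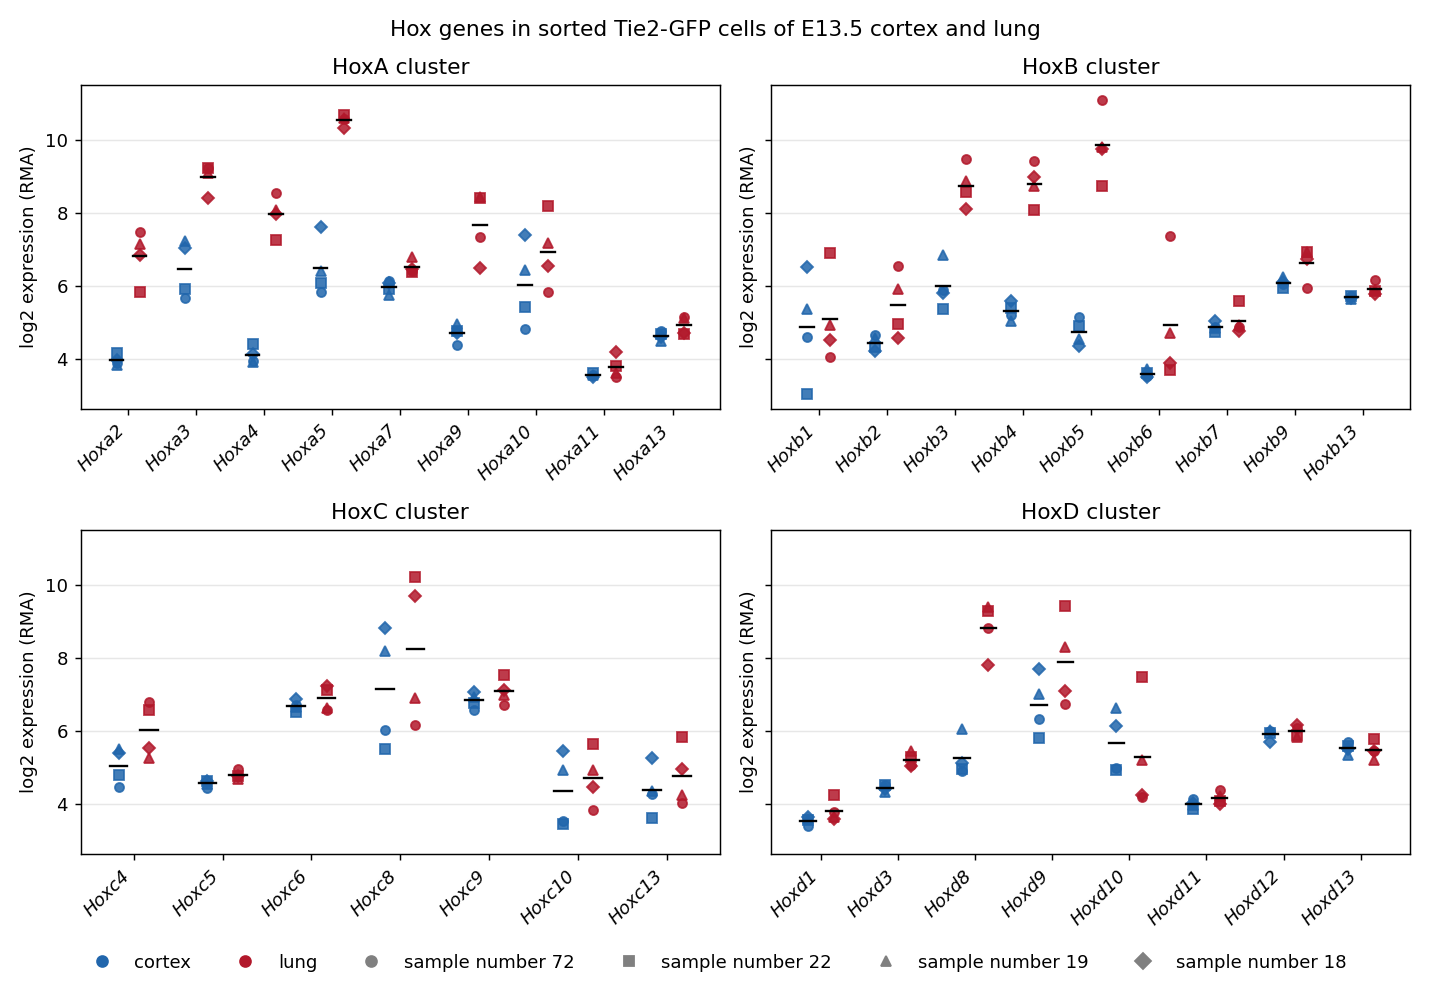
Level of each of the 33 Hox genes on every array, as log2 RMA expression (vertical axis), for the HoxA, HoxB, HoxC and HoxD clusters with genes in the order of their number; cortex arrays are blue and left of the red lung arrays, symbols give the sample number and bars the mean of 4 arrays. Hoxa2 to Hoxa5 and Hoxb3 to Hoxb5 separate by tissue, while most HoxC genes and most genes numbered 9 or more overlap.

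The HoxA cluster held most of the called genes, with 6 of 9 lower in cortex, against 7.71% of all genes, and a median difference of -2.55. Hoxa5, which is required for normal lung development, measured 5.84, 6.07, 6.42 and 7.62 on the cortex arrays (sample numbers 72, 22, 19 and 18, an order kept below), against 10.58, 10.71, 10.62 and 10.35 on the lung arrays. The lung arrays were close together and the cortex arrays spread over more than 1 log2 unit, with cortex array 18 the highest. The difference was -4.08 ± 0.35 (SE), 16.9-fold lower in cortex, with a limma adjusted p of 0.000105. On another Hoxa5 probe set the cortex arrays ran from 5.16 to 5.80, with cortex array 72 the highest. Hoxa4, which patterns neck vertebrae, measured 3.94, 4.40, 3.92 and 4.12 in cortex, against 8.55, 7.28, 8.10 and 7.97 in lung. It was low on every cortex array and 14.7-fold lower there (-3.88 ± 0.26, limma adjusted p = 2.83e-05).

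Hoxa3, needed for the thymus and parathyroid glands of the pharynx, measured 5.66, 5.92, 7.22 and 7.05 in cortex, against 9.23, 9.25, 9.11 and 8.43 in lung. Cortex arrays 19 and 18 were the higher ones, and the gap to the lowest lung array stayed above 1 log2 unit. The mean difference was -2.55 ± 0.38 (limma adjusted p = 0.00223), and it was not called, at -1.33, with endothelial scaling (limma adjusted p = 0.0586). Hoxa2, which sets the identity of a branchial arch, measured 3.89, 4.17, 3.83 and 3.98 in cortex, against 7.48, 5.83, 7.14 and 6.86 in lung. Lung array 22 was the lowest of the lung arrays and still above every cortex array, and the difference was -2.86 ± 0.32 (limma adjusted p = 0.000441).

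Hoxa9, a regulator of blood stem cells and of endothelial cells, was the only called gene numbered 9 or more. It measured 4.39, 4.75, 4.95 and 4.70 in cortex, against 7.35, 8.42, 8.45 and 6.48 in lung. The lung arrays spread over nearly 2 log2 units without reaching the cortex range, and Hoxa9 was 7.87-fold lower in cortex (-2.98 ± 0.42, limma adjusted p = 0.00163). Hoxa7, a gene of the trunk, measured 6.13, 5.92, 5.75 and 6.08 in cortex, against 6.42, 6.38, 6.79 and 6.46 in lung. The gap between the groups was narrow, and its difference of -0.54 ± 0.15 just passed the limma test (adjusted p = 0.0397). The Hoxa7 call was lost when any of the 8 arrays was left out, with differences of -0.60 to -0.45.

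The uncalled HoxA genes were Hoxa10, Hoxa11 and Hoxa13, all of the 5′ end. Hoxa10, which acts in the uterus and the lumbar spine, measured 4.83, 5.43, 6.45 and 7.39 in cortex, against 5.82, 8.21, 7.17 and 6.56 in lung. The groups overlapped, with cortex array 18 above 3 of the lung arrays, and the difference of -0.92 had a 95% interval of -2.38 to 0.55. Leaving out single arrays gave -1.37 to -0.50, with the smallest without lung array 22. Hoxa11 averaged 3.55 ± 0.05 in cortex and 3.78 ± 0.30 in lung, and Hoxa13 averaged 4.63 ± 0.12 in cortex and 4.91 ± 0.25 in lung (SD, n = 4 each).

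In the HoxB cluster 3 of 9 genes fell in cortex, against 7.71% of all genes, and the 3 were neighbours, Hoxb3, Hoxb4 and Hoxb5. Hoxb5, which takes part in lung branching and marks blood stem cells, measured 5.15, 4.91, 4.53 and 4.35 in cortex, against 11.12, 8.75, 9.81 and 9.76 in lung. Every lung array lay more than 3 log2 units above every cortex array, and Hoxb5 was 34.9-fold lower in cortex (-5.12 ± 0.45, limma adjusted p = 0.000107). Hoxb4, known for expanding blood stem cells, measured 5.21, 5.39, 5.04 and 5.59 in cortex, against 9.42, 8.08, 8.74 and 9.002 in lung. It was 11.4-fold lower in cortex with a narrow spread there (-3.50 ± 0.28, limma adjusted p = 6.21e-05). Hoxb3, a gene of hindbrain and pharynx, measured 5.90, 5.37, 6.86 and 5.82 in cortex, against 9.48, 8.57, 8.87 and 8.11 in lung. The groups were more than 1 log2 unit apart, and the difference was -2.77 ± 0.37 (limma adjusted p = 0.00116).

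The other HoxB genes were not called. Hoxb6, a trunk gene, measured 3.51, 3.60, 3.73 and 3.50 in cortex, against 7.38, 3.70, 4.71 and 3.88 in lung. Lung array 72 alone stood far above the rest, and the difference of -1.33 ± 0.72 did not pass the limma test (adjusted p = 0.249). Without lung array 72 it was -0.51. Hoxb2, which acts in the hindbrain, averaged 4.45 ± 0.21 in cortex and 5.49 ± 0.90 in lung (SD, n = 4 each), and its difference of -1.04 had an adjusted p of 0.111 in limma. It was called, at -1.35, when lung array 18 was left out. Hoxb9 averaged 6.09 ± 0.14 in cortex and 6.64 ± 0.48 in lung, and was called, at -0.79, when lung array 72 was left out. Hoxb1, which gives a hindbrain segment its identity, spread from 3.03 to 6.53 in cortex and from 4.04 to 6.91 in lung, so the tissues overlapped widely. Hoxb7 and Hoxb13 differed by -0.18 and -0.24.

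In the HoxD cluster 2 of 8 genes fell in cortex, against 7.71% of all genes. Hoxd8, a trunk gene, measured 4.91, 4.96, 6.06 and 5.12 in cortex, against 8.82, 9.30, 9.40 and 7.80 in lung. It was 11.9-fold lower in cortex (-3.57 ± 0.39, limma adjusted p = 0.000399), and no cortex array reached the lung range. Hoxd3, which patterns neck vertebrae and promotes an invasive state in cultured endothelial cells, measured 4.51, 4.53, 4.34 and 4.41 in cortex, against 5.08, 5.28, 5.46 and 5.03 in lung. The difference was small and even across arrays (-0.77 ± 0.14, limma adjusted p = 0.0062). Hoxd9, which acts in limbs and the lower spine, measured 6.32, 5.80, 7.01 and 7.70 in cortex, against 6.75, 9.44, 8.31 and 7.10 in lung. The groups overlapped, and its difference of -1.19 had an adjusted p of 0.237 in limma and was -0.68 without lung array 22.

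The other HoxD genes showed small differences. Hoxd10, a gene of lumbar motor neurons, measured 4.97, 4.94, 6.62 and 6.14 in cortex, against 4.17, 7.48, 5.19 and 4.25 in lung. Lung array 22 was the highest of all arrays and lung arrays 72 and 18 the lowest, and the difference of 0.39 had a 95% interval of -1.30 to 2.09. Hoxd1, Hoxd11, Hoxd12 and Hoxd13 differed by -0.27, -0.17, -0.07 and 0.06, and for Hoxd13, a gene of digits and genitalia, another probe set had the opposite sign.

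No HoxC gene was called, in 7 measured, where 7.71% of all genes fell in cortex, and the median difference was -0.36. Hoxc8, which sets motor neuron identity at forelimb level, measured 6.03, 5.50, 8.20 and 8.83 in cortex, against 6.15, 10.24, 6.90 and 9.71 in lung. Both tissues held high and low arrays, more than 3 log2 units apart, and the difference of -1.11 ± 1.09 did not pass the limma test (adjusted p = 0.518). Hoxc4, which acts at neck level, measured 5.04 ± 0.49 in cortex and 6.04 ± 0.77 in lung (SD, n = 4 each). Its difference of -0.998 had an adjusted p of 0.123 in limma, and it was called, at -2.06, from the arrays numbered 72 and 22 alone. Hoxc5, Hoxc6, Hoxc9, Hoxc10 and Hoxc13 differed by -0.23, -0.20, -0.25, -0.36 and -0.40.

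By paralogue number, the called genes were most frequent towards the 3′ end. Among genes numbered 1 to 5, 8 of 13 fell in cortex, where 7.71% of all genes did, and the median difference was -2.55. Among those numbered 6 to 8, 2 of 6 fell, with a median of -0.83. Among those numbered 9 to 13, 1 of 14 fell, a count near the share of all genes, with a median of -0.26. All 3 measured genes of paralogue group 3 fell, and 2 of 3 fell in group 4 and in group 5, where the uncalled ones were Hoxc4 and Hoxc5. Neither measured gene of group 1, Hoxb1 and Hoxd1, was called, and the 4 genes of group 13 differed by -0.40 to 0.06. By cluster, the genes numbered 1 to 5 that fell were 4 of 4 in HoxA, 3 of 5 in HoxB, 0 of 2 in HoxC and 1 of 2 in HoxD. No test of the differences between clusters or positions was made.

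**Figure D2:**
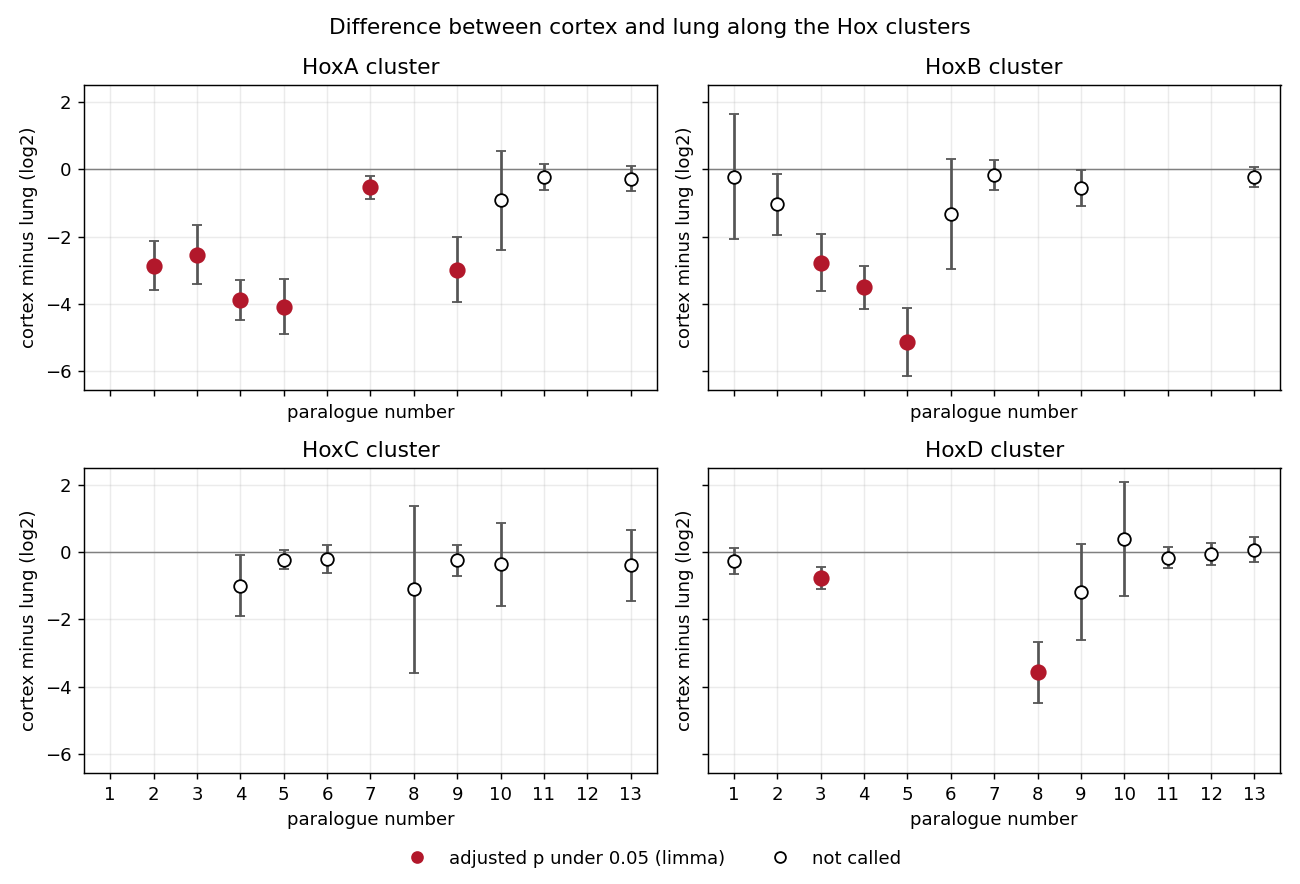
Difference between cortex and lung (cortex minus lung, log2, vertical axis) against paralogue number (horizontal axis) in each Hox cluster; points are limma estimates from 4 cortex and 4 lung arrays with 95% confidence intervals, filled where the adjusted p was under 0.05. The largest differences lie at numbers 2 to 5 of HoxA and 3 to 5 of HoxB, with Hoxa9 and Hoxd8 apart from them.

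RMA values carry no detection call, so a background level was taken on each array as the 95th percentile of 70 odorant, vomeronasal and trace-amine receptor genes, families of sensory neurons. It was 5.65 to 6.52 on the cortex arrays and 5.65 to 7.83 on the lung arrays. Hoxa4, Hoxb4 and Hoxb5 were above it on all 4 lung arrays and on 0 of the cortex arrays. Of the other called genes, Hoxa9 and Hoxd8 were above it on 3 lung arrays and Hoxa2 on 2, with 0 cortex arrays, Hoxb3 on 2 cortex arrays and all 4 lung arrays, and Hoxa7 on 2 arrays of each tissue. Hoxa5 was the only Hox gene above it on all 8 arrays, but its other probe set was above it on 5, with 5.64 on cortex array 18. Hoxa3 was above it on 3 cortex arrays and all 4 lung arrays. Of the uncalled genes, Hoxc6, Hoxc9 and Hoxd9 were above the background level on all 4 cortex arrays, and on 2, 3 and 3 lung arrays. Hoxb9 and Hoxc8 were above it on 3 cortex arrays, and on 2 and 4 lung arrays. Hoxa11, Hoxa13, Hoxb7, Hoxc5, Hoxc10, Hoxc13, Hoxd1, Hoxd3, Hoxd11 and Hoxd13 were above it on none, so the called Hoxd3 lay within the range of these receptor genes in both tissues. RMA can compress differences near its lower end, so folds against such low values may understate the difference, which was not tested.

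Other probe sets of the same genes mostly gave the same direction. The 33 genes had 48 probe sets of their own, and 11 genes had several. Of the 15 probe sets not chosen, 14 had the sign of the chosen one, 8 were called lower in cortex and 0 higher. For genes called by their chosen probe set, 8 of 9 further probe sets were called too, and the exception was a Hoxa3 probe set with a difference of -0.20. The size depended on the probe set. It was smaller on the further one for Hoxa4 (-1.88, against -3.88 on the chosen one), Hoxa9 (-0.73, against -2.98) and Hoxb3 (-2.02, against -2.77). The same held for Hoxb4 (-1.09, against -3.50) and Hoxd8 (-1.71, against -3.57). For Hoxa5 it was larger (-4.45, against -4.08), and the called further Hoxa3 probe sets gave -3.66 and -1.50, against -2.55. In the RefSeq gene table the Hoxa3, Hoxb3 and Hoxd3 loci overlap neighbouring Hox genes, so a probe set of such a locus may read transcripts that run through several genes.

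The array with the highest value varied from gene to gene. Among the 11 called genes, lung array 72 was the highest lung array for 5, lung array 19 for 4, lung array 22 for 2 and lung array 18 for 0. Among the 22 uncalled genes, lung array 22 was the highest lung array for 11, lung array 72 for 7, lung array 18 for 3 and lung array 19 for 1. Cortex array 18 was the highest cortex array for 2 of the called genes and 10 of the uncalled genes, and no test of these counts was made. The called genes averaged 5.05, 5.13, 5.36 and 5.35 on the cortex arrays, against 8.50, 7.99, 8.41 and 7.84 on the lung arrays. The uncalled genes averaged 4.96, 4.82, 5.39 and 5.58 on the cortex arrays, against 5.41, 6.15, 5.51 and 5.46 on the lung arrays.

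Control probe sets varied across the same arrays. The bioB hybridisation controls, bacterial transcripts added to every sample in equal amount, averaged 7.23, 7.50, 8.06 and 8.05 on the cortex arrays, against 7.30, 8.63, 7.80 and 8.95 on the lung arrays. Hoxc8 was high where bioB was high, on cortex arrays 19 and 18 and lung arrays 22 and 18, and low on the other arrays. With bioB as a covariate, an alternative added after the values were seen, the difference of Hoxc8 was 0.15 and 14 Hox genes were called lower (10.9% of all genes), with Hoxa13, Hoxb2 and Hoxb6 gained at -0.42, -1.48 and -2.02. The part of array quality in the Hox values was not tested further.

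Some markers of other cells also differed between the tissues, where 7.71% of all genes were lower and 10.4% higher in cortex. Of 12 markers of lung mesenchyme, 8 were lower in cortex, and their mean was 6.07, 5.89, 6.26 and 5.85 on the cortex arrays, against 9.68, 8.21, 8.83 and 7.68 on the lung arrays. Lung array 72, which had the highest mesenchyme mean, was the highest lung array for 12 of the 33 Hox genes, among them the called Hoxa2, Hoxa4, Hoxb3, Hoxb4 and Hoxb5. It was the lowest lung array for 11 of the 33, and lung array 22 was the highest for 13. The called Hoxa3, Hoxa5, Hoxa7, Hoxa9, Hoxd3 and Hoxd8 were highest on another lung array, and Hoxa5 was nearly even across them, at 10.35 to 10.71. Of 9 markers of mural cells (pericytes and smooth muscle), 2 were lower and 1 was higher in cortex, and their mean ranged from 6.82 to 7.18 in cortex and from 6.82 to 8.45 in lung. Of 14 endothelial markers, 4 were lower in cortex and 0 higher. Of 10 markers of blood cells and macrophages, 1 was lower and 1 higher, both near the shares of all genes. Of 9 lung epithelial markers, 2 were lower and 1 higher. Of 8 markers of meninges and choroid plexus, 1 was lower and 3 were higher in cortex. All 12 neural markers were higher in cortex, and their mean was 11.1 to 11.6 on the cortex arrays, against 6.16 to 6.54 on the lung arrays. The part of any of these cell types in the Hox differences was not tested.

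**Figure D3:**
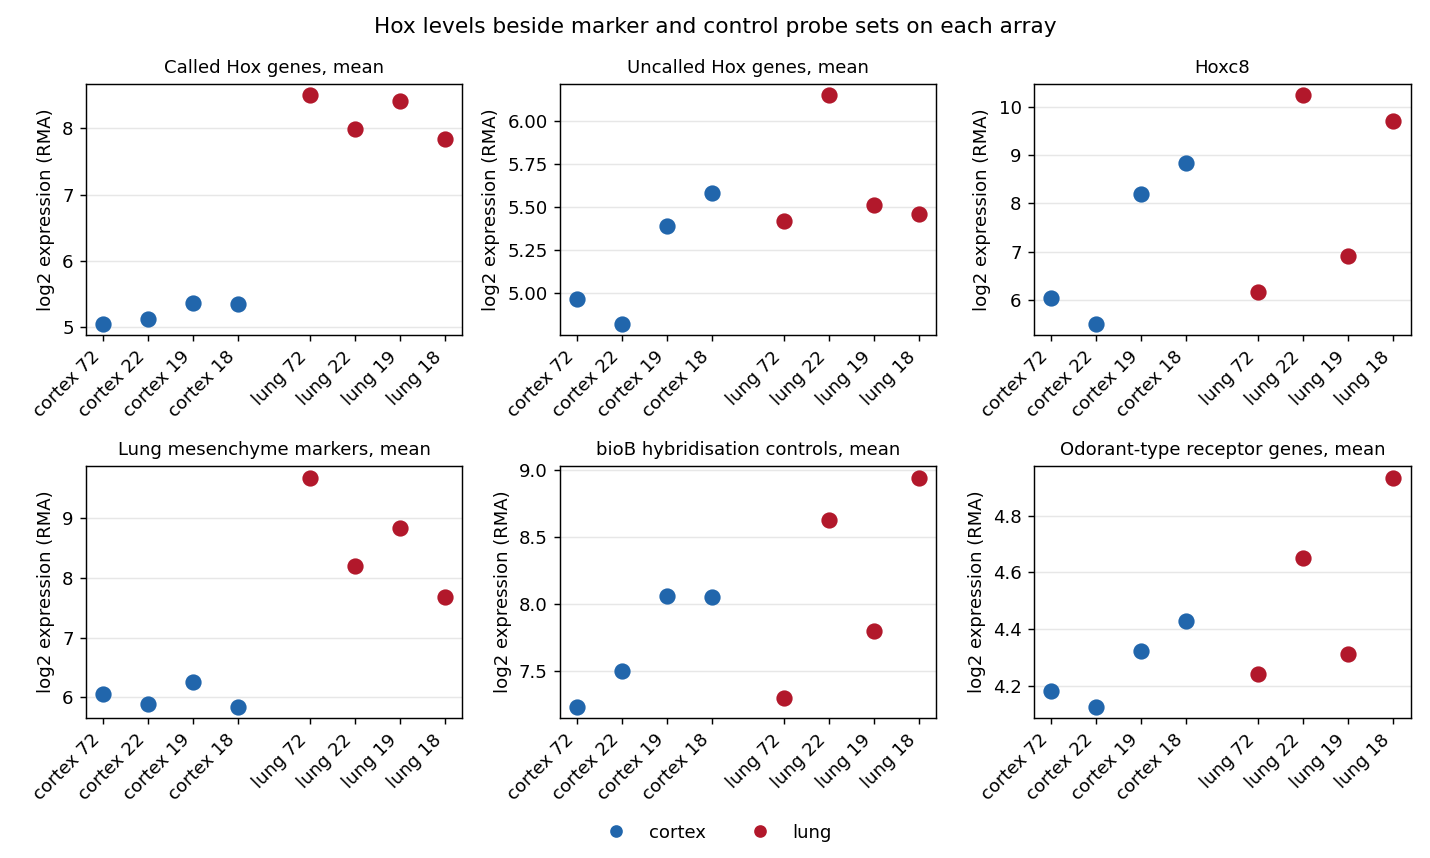
Values per array (log2 RMA expression, vertical axes with different ranges) of the mean of the 11 called Hox genes, the mean of the 22 uncalled Hox genes, Hoxc8, the mean of 12 lung mesenchyme markers, the mean of the bioB controls and the mean of 70 odorant-type receptor genes, with the cortex arrays left of the lung arrays. The called genes separate by tissue, whereas Hoxc8 is high on cortex arrays 19 and 18 and lung arrays 22 and 18, where bioB is also high.

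The TALE homeodomain genes, whose proteins bind DNA together with HOX proteins, were called in both directions. Of 8 measured, 1 fell and 2 rose in cortex, where 7.71% of all genes fell and 10.4% rose, and the median difference was 0.39. Meis3 rose (8.70 ± 0.57 in cortex and 6.25 ± 0.56 in lung, SD, n = 4 each), with a difference of 2.45 and a limma adjusted p of 0.00174. Meis2, which is active in the developing forebrain, rose by 0.77 (limma adjusted p = 0.0314), and Meis1, a cofactor in blood cells, fell by 1.16 (limma adjusted p = 0.0493). The Meis1 call was lost on leaving out each array other than cortex 18, with differences of -1.32 to -0.88, and the Meis2 call was lost without cortex array 72, 22 or 18 or lung array 22 or 18 (0.68 to 0.75). Pbx2 and Pbx3, which encode DNA-binding partners of HOX proteins, differed by 0.02 and 0.46 and were not called, although Pbx3 was called at 0.71 without cortex array 22.

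Genes of proteins that act on Hox chromatin were mostly uncalled. Of 20 Polycomb genes 3 rose in cortex and 0 fell, a count near the 10.4% of all genes that rose, and the median was 0.39. Ezh2, the methyltransferase that writes the Polycomb mark, rose by 0.73 (limma adjusted p = 0.0184), and was not called without cortex array 18 or lung array 22 (0.67 to 0.70). Phc1 and Kdm2b, members of Polycomb complexes, rose by 0.83 and 0.49 (limma adjusted p = 0.043 and 0.0461). Phc1 kept its call only without cortex array 19 or lung array 18, and Kdm2b only without cortex array 72, and over the other omissions the differences were 0.69 to 0.90 and 0.40 to 0.53. Of 11 Trithorax and demethylase genes 2 rose and 0 fell, beside the same 10.4% of all genes that rose. Psip1, a chromatin reader that tethers the Hox activator MLL, rose by 1.32 (limma adjusted p = 0.00199), and Kmt2a, which encodes MLL, rose by 0.59 (limma adjusted p = 0.0283), a call kept only without lung array 19 (0.50 to 0.61 over the other omissions).

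Retinoic acid genes were called in both directions, with 4 of 15 lower and 2 higher in cortex, beside 7.71% and 10.4% of all genes. The count of 2 higher was near that share, and the median was -0.33. Cyp26b1, which degrades retinoic acid, fell to 6.10 ± 0.59 in cortex, against 10.2 ± 0.10 in lung (SD, n = 4 each), a difference of -4.12 with a limma adjusted p of 2.56e-05. Stra6, a receptor for the retinol carrier, and Crabp1, which binds retinoic acid in the cell, rose by 2.31 and 2.07 (limma adjusted p = 0.00604 and 0.0346). The Crabp1 call was lost without cortex array 72, 19 or 18 or lung array 22, 19 or 18 (1.75 to 2.24). The other genes that fell were named after their values were seen. They were Aldh1a2, a synthesis enzyme (-2.05), Rarg, a retinoic acid receptor (-1.29), and Rxra, its partner (-1.19), with limma adjusted p of 0.029, 0.0197 and 0.000847. The Aldh1a2 call held only without lung array 72 or 18 (-2.07 to -2.01 over the other omissions), and the Rarg call was lost without cortex array 72 or lung array 19 (-1.29 both).

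**Figure D4:**
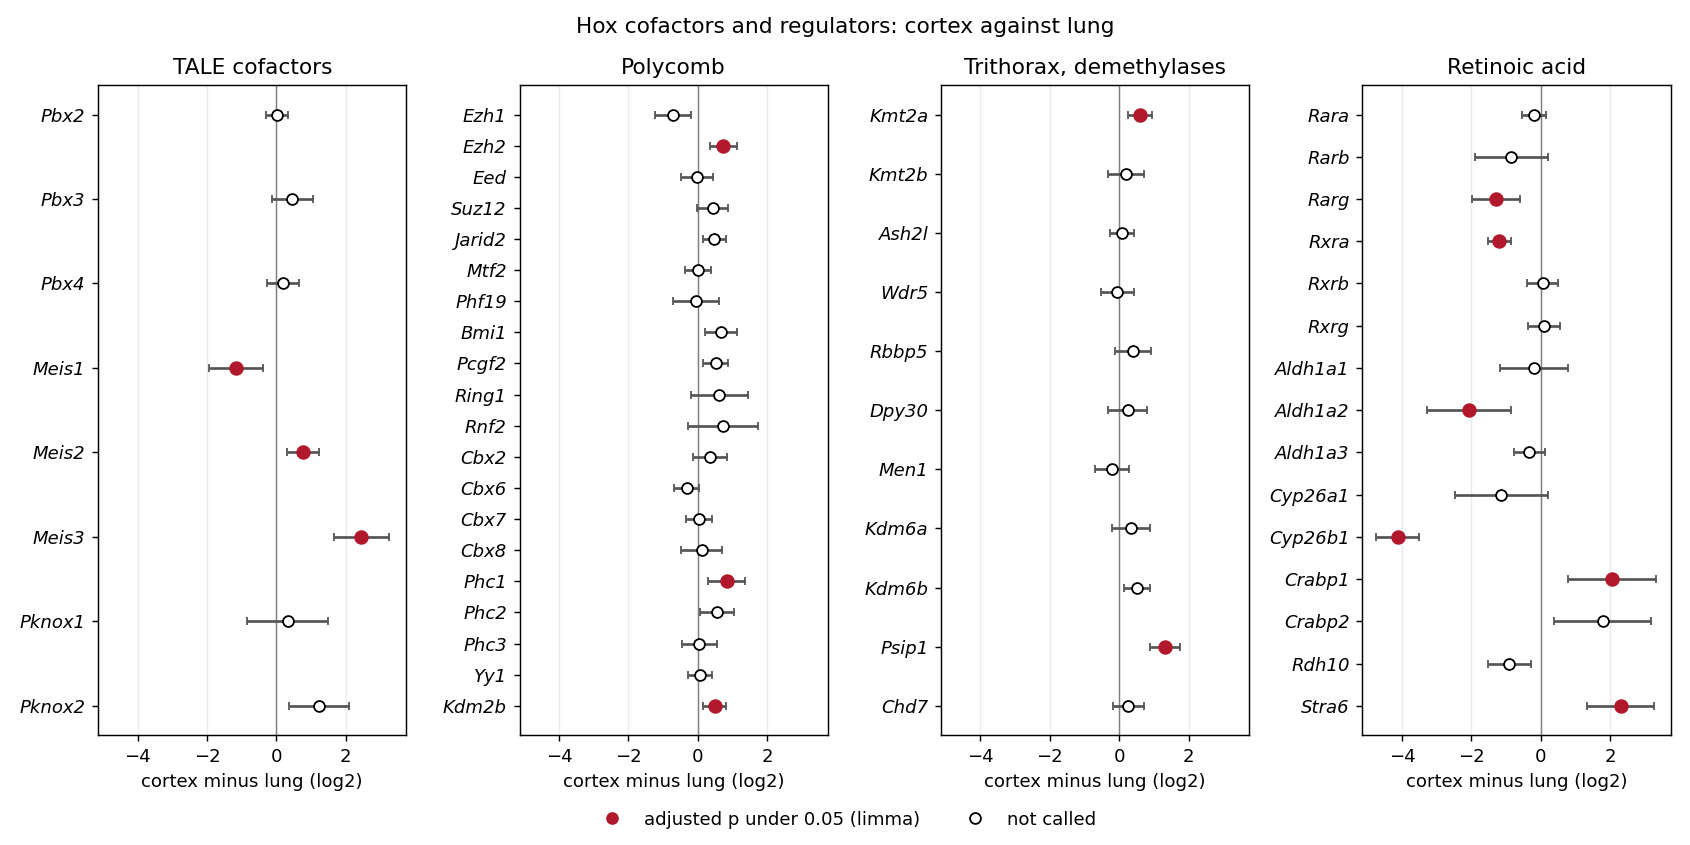
Difference between cortex and lung (cortex minus lung, log2, horizontal axis) for 8 TALE cofactors, 20 Polycomb, 11 Trithorax and demethylase and 15 retinoic acid genes, with 95% confidence intervals from limma over 4 cortex and 4 lung arrays, filled where the adjusted p was under 0.05. The Polycomb and Trithorax calls are all to the right of 0, and the retinoic acid genes lie on both sides.

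Of 16 genes next to the Hox clusters 1 was called, near the 7.71% of all genes that fell. It was Skap2, an adaptor of immune-cell signalling that lies beyond the 3′ end of HoxA. Skap2 fell to 7.55 ± 0.09 in cortex, against 10.2 ± 0.32 in lung (SD, n = 4 each), a difference of -2.67 with a limma adjusted p of 2.56e-05, and the median of the 16 was 0.11. Cbx5 and Atp5g1, beside HoxC and HoxB, differed by 0.30 and -0.51 and were not called. Of 3 noncoding RNAs of the clusters none was called. Hoxb5os differed by -1.67 (limma adjusted p = 0.0828), and was called, at -2.15, without lung array 18. Hoxd3os1 differed by -1.33 (limma adjusted p = 0.147), and was called, at -1.81, without cortex array 18. Of 7 ParaHox and Evx genes, relatives of the Hox genes, none was called and the median was -0.18.

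Homeobox and other regulators of the forebrain went the opposite way to the Hox genes. Of 10 measured, 8 rose in cortex and 0 fell, where 10.4% of all genes rose and 7.71% fell. Their median was 3.90, against -0.09 over all genes. Emx2, a cortical patterning gene, averaged 10.2 ± 0.34 in cortex and 4.49 ± 0.79 in lung, Dlx1, a gene of forebrain interneurons, averaged 10.8 ± 0.60 in cortex and 5.27 ± 0.42 in lung, and Lhx2, which specifies cortex, averaged 9.17 ± 0.62 in cortex and 4.10 ± 0.23 in lung (SD, n = 4 each). Their differences were 5.69, 5.53 and 5.08 (limma adjusted p = 2.56e-05, 1.53e-05 and 1.53e-05). Six3 and Gsx2 differed by 2.41 and 0.71 and were not called. All 12 neural markers rose in the same cortex arrays.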

How the data were processed

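GFP-positive cells from cortex and lung were profiled on 8 arrays, 4 per tissue. Probe sets carry log2 values as deposited by the authors. Per the submitters' processing notes the tools used include RMA and affy, and their versions are not given in the sources used here. RMA corrects background, normalises arrays by quantiles and summarises probes, so each value is relative to its array. All 8 columns were matched to samples by identifier, and 0 columns were left out. The medians of single arrays were 6.59 to 6.72. Precision is limited by the number of arrays.

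Of 45037 probe sets other than controls, 34945 named 1 gene in the platform annotation, 932 several, and 9160 were unnamed here. Where a gene had several, the highest on average was used, which gave 18193 genes, and dim probe sets were kept. A linear model with tissue as its factor was fitted by limma 3.58.1 (lmFit, eBayes) under R 4.3.3. Its two-sided p-values were adjusted over all 18193 genes (Benjamini-Hochberg). The fit was tested on simulated data. Errors are SD over 4 arrays or the SE of the fit, and intervals are at 95%.

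Values on all 8 arrays are given for called Hox genes and for the uncalled gene of each cluster with the largest difference. Hoxd10 was added after its values were seen. From each other list up to 3 called genes with the largest difference and up to 2 uncalled genes with the highest mean are named. The Hox genes, the lists and the alternatives were chosen with earlier results of these data known, so no test over a list was made. Promoters came from a RefSeq table (GRCm38.p6).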

Additional observations from a re-analysis of the deposited data

Results flagged for a closer look

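In these groups of 4 arrays, 3 genes named above had an array that lay far from the others of its tissue, by the gap to the nearest array over the whole range (above 0.829). Skap2 was 9.74 on lung array 18, where the nearest lung array was at 10.33. Hoxb5os was 4.59 on cortex array 18, where the nearest cortex array was at 4.72, a gap small in size. Pbx3 was 10.91 on lung array 72, where the nearest lung array was at 10.59. These were 3 of 112 groups of arrays examined, and none of the 66 groups of Hox genes was among them, while a gap of this kind arises by chance in about 5% of groups.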

How the results depend on the processing

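Over 22 alternatives, 7 to 14 Hox genes were called lower in cortex. Hoxa4, Hoxa5, Hoxb3, Hoxb4 and Hoxd8 were called in all 22 and Hoxa9 in the 21 that tested it, while Hoxa7 was called in 5 of 21. Leaving out 1 array, or both of a number, gave 9 to 11, and the Hox median ran from -0.82 to -0.38. The arrays numbered 72 and 22 alone gave 8 and a median of -1.24, gaining Hoxc4 and losing Hoxa2 (-2.63), Hoxa7 (-0.37), Hoxb5 (-4.90, adjusted p = 0.0564) and Hoxd3 (-0.66). A filter on dim probe sets kept 11 Hox genes, 7 of them called, with a median of -2.77. It kept 4 of the 7 through lung arrays alone, so these values are partly set by the filter. Array weights gave 13. Not all same-numbered arrays deviated together (r = 0.33, -0.16, 0.01 and 0.31), so the numbers were not taken as pairs. With the number as a replicate block 10 Hox genes were called, without Hoxa7, and 0 cofactors were lower and 1 higher. Cofactors called lower numbered 0 in many alternatives (the trend prior, all probe sets and bioB among them) and 0 to 1 over omissions. Those called higher numbered 1 to 3 over omissions, 1 with the mean of probe sets, 0 with the arrays numbered 72 and 22, and 6 with endothelial scaling. Over single-array omissions 0 to 4 Polycomb, 1 to 2 Trithorax and 1 to 3 retinoic acid genes were higher and 2 to 5 retinoic acid genes lower. Endothelial scaling made these 11, 8, 3 and 1, with 7 cluster neighbours higher, and the arrays numbered 72 and 22 made them 0, 0, 0 and 1. Endothelial scaling, where the median of all genes was 1.13, made 1 Hox gene higher and turned the Hox median to 0.67. It turned Hoxa7 to 0.68, Hoxa10 to 0.30, Hoxa11 to 0.99, Hoxa13 to 0.94, Hoxb1 to 0.997, Hoxb2 to 0.18, Hoxb7 to 1.04, Hoxb9 to 0.67, Hoxb13 to 0.98, Hoxc4 to 0.22, Hoxc5 to 0.99, Hoxc6 to 1.01, Hoxc8 to 0.11, Hoxc9 to 0.97, Hoxc10 to 0.85, Hoxc13 to 0.82, Hoxd1 to 0.95, Hoxd3 to 0.45, Hoxd9 to 0.0264, Hoxd11 to 1.04, Hoxd12 to 1.15, Meis1 to 0.0611 and Rxra to 0.0325. The bioB covariate turned Hoxb1 to 0.31, Hoxc8 to 0.15, Hoxc10 to 0.0628, Hoxc13 to 0.0104 and Pbx2 to -0.0108. The arrays numbered 72 and 22 turned Hoxd10 to -0.87 and Pbx2 to -0.11, array weights Hoxd12 to 0.0293 and Pbx2 to -0.0306, median centring Hoxd13 to -0.0135 and Pbx2 to -0.0567, the mean of probe sets Hoxd13 to -0.0608 and Cbx5 to -0.0047, and all probe sets Hoxd13 to -0.18. Omissions of arrays gave -0.96 to 0.998 for Hoxb1, -0.33 to 0.0515 for Hoxb7, -1.92 to 0.10 for Hoxc8, -0.82 to 0.24 for Hoxc10, -0.69 to 0.22 for Hoxc13, -0.11 to 1.37 for Hoxd10, -0.15 to 0.0613 for Hoxd12, -0.0287 to 0.17 for Hoxd13 and -0.0412 to 0.14 for Pbx2. None of these reversed differences was called, and beyond counting the genes that the filter kept, the causes were not tested.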
